A study of Canis lupus familiaris with 10 samples.

Results

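STAT proteins are transcription factors that Janus kinases (JAKs) activate below cytokine receptors, and SOCS proteins are inhibitors that these factors induce and that then limit the same receptors. Genes of both families were chosen by their symbols: STAT2, STAT3, STAT4, STAT5A, STAT5B, STAT6, SOCS1, SOCS3 and CISH. Of these 9 genes, 8 were among the 23266 gene symbols of the deposited table and are described here, 5 STAT factors and 3 feedback genes of the SOCS family. STAT5B was not analysed here. The list does not cover the whole of either family.

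Their transcripts were counted with QuantSeq 3′, which reads the 3′ ends of mRNA, in archived FFPE (formalin-fixed, paraffin-embedded) canine cutaneous histiocytoma. This tumor, abbreviated CCH, is a benign growth in the skin of dogs, is derived from the Langerhans cell lineage and often regresses on its own. Early CCH comprised 5 samples of group 1 of a histological staging scheme, from dogs aged 0.5 to 5 years (age given for 4 of them). Late CCH comprised 5 samples of group 3, labeled as lymphocyte enriched, from dogs aged 1.5 to 9 years. Each library stands for the tumor of a different dog, so that the stages are a comparison between animals rather than a course within one animal. The dogs were of several breeds and of both sexes in both stages, and the labels name no treatment.

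In this pathway a cytokine brings receptor chains together, the attached JAKs phosphorylate STAT proteins, and STAT dimers enter the nucleus and bind DNA. STAT2 acts in the response to type I interferons, STAT3 in the response to IL-6 and IL-10, STAT4 in that to IL-12, STAT5A in that to IL-2 and related cytokines, and STAT6 in that to IL-4 and IL-13. SOCS1 restrains interferon and gamma-chain cytokine signals, SOCS3 restrains IL-6 type receptors, and CISH is a classic STAT5 target in lymphocytes. Transcript levels say nothing of phosphorylation, the step at which STAT proteins are switched on.

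Each library held 2973125 to 4439709 reads assigned to genes, and a count of 0 allows up to 3 reads, or a normalized read count of 2.36 to 3.22. The columns of the table give the stage but no sample, and the numbers 1 to 5 given to the libraries of a stage are names without further meaning. The labels give an RNA quality, the DV200 share, of 68.5% ± 2.46 in early and 73.2% ± 2.09 in late CCH (SD, n = 5 each). The study also lists RNA extraction batches that each hold samples of only 1 stage. RNA quality, extraction batch and stage cannot be told apart. Langerhans and dendritic cell markers were found in all libraries, with a mean log2(value + 1) over 8 genes of 7.04 to 7.77 in early and 5.66 to 6.61 in late CCH. CD207, the defining gene of Langerhans cells, was not analysed here. Markers of T cells, over 12 genes, ranged from 2.03 to 6.94 in early and from 8.07 to 8.64 in late CCH, and for all 12 genes the stages did not overlap. The early tumors thus differed widely among themselves in T cell transcripts, with library 1 lowest at 2.03, followed by library 5 at 3.99, library 2 at 5.27, library 4 at 6.54 and library 3 at 6.94.

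The 8 genes together took 521 to 1059 RPM (reads scaled to a common library total) in early and 785 to 994 in late CCH. The STAT factors took 318 to 552 RPM in early and 490 to 655 in late CCH. The SOCS genes took 123 to 507 RPM in early and 258 to 433 RPM in late CCH. QuantSeq 3′ gives a single fragment per transcript, so that levels of different genes were set side by side without division by length. SOCS3 and STAT3 had the highest levels, with a mean normalized read count above that of 96.3% and 96.1% of the 12397 genes tested. STAT2 lay above 84.0% and STAT6 above 76.4% of them. The other members lay lower, STAT4 above 43.2%, SOCS1 above 43.2%, STAT5A above 42.4% and CISH above 28.9%.

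**Figure D1:**
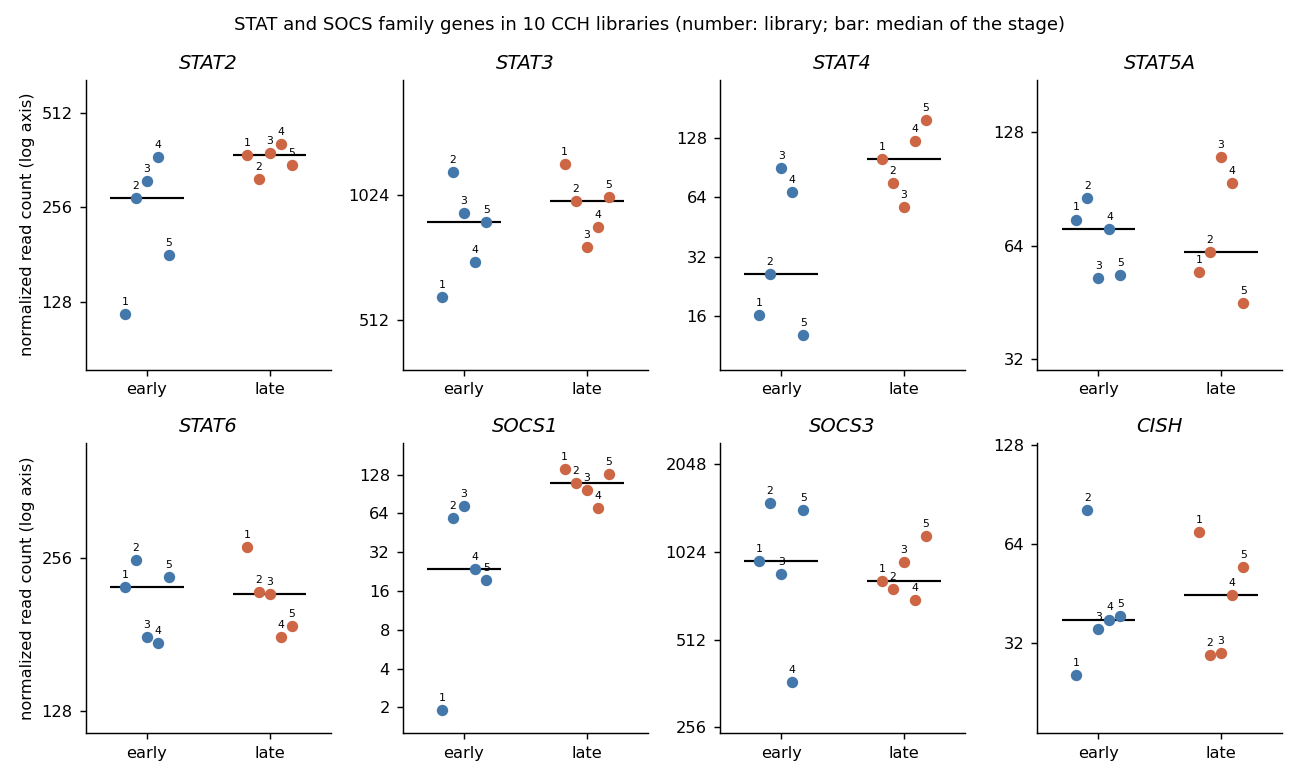
Normalized read count (log axis, a different range in each panel) of the 8 genes in each of 5 early and 5 late CCH libraries; points are libraries with their number and bars are medians of a stage. SOCS1 lies between 1.90 and 73.3 in early and between 70.6 and 140 in late CCH, while the stages lie on top of each other for STAT6 and CISH.

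SOCS1 had the largest difference between the stages of the 8 genes. Its normalized read count in the early libraries 1 to 5 was 1.90, 58.6, 73.3, 23.6 and 19.3. In the late libraries it was 140, 110, 97.8, 70.6 and 129. Late values exceeded every early value in 4 of 5 libraries, and late library 4 lay just under early library 3, so that the stages overlapped. The value of early library 1 rested on 2 reads, below the limit that a count of 0 allows. The log2 fold change of late against early CCH, taken on log2(value + 1) and written log2FC, was 2.23 ± 0.70 (SE), with a 95% interval from 0.71 to 3.75. The study's threshold asks for a log2FC of at least 1 in either direction and for a p-value of 0.05 or less after Benjamini-Yekutieli (BY) adjustment. The study applied it to sequencing results of DESeq2 with shrinkage of the fold changes, whereas here it was applied to limma without shrinkage. SOCS1 did not pass this threshold (limma, adjusted p = 0.492, unadjusted p = 0.00761). Without early library 1 the log2FC was 1.48.

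STAT4, the factor of the IL-12 response in T and NK cells, followed. The early libraries held 16.2, 26.1, 90.5, 67.7 and 12.9 normalized reads and the late libraries 99.4, 75.2, 57.1, 123 and 157. Early libraries 3 and 4 lay within the late range, whereas early libraries 1, 2 and 5 lay below every late library. The mean was 42.7 ± 34.6 in early and 102 ± 39.5 in late CCH (SD, n = 5 each). The log2FC was 1.55 ± 0.51 (SE), with a 95% interval from 0.45 to 2.65, and it was not called (limma, BY-adjusted p = 0.57, unadjusted p = 0.00972).

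STAT2, which joins the interferon-activated complex ISGF3, showed a smaller difference. The early libraries held 117, 274, 311, 371 and 180 normalized reads and the late libraries 375, 316, 382, 407 and 348. The late libraries were close together, with a highest value 1.29 times the lowest, whereas the early libraries spread over 3.17 times. The log2FC was 0.65 ± 0.27 (SE, 95% interval 0.07 to 1.23), and it was not called (limma, BY-adjusted p = 1, unadjusted p = 0.0318). Without early library 1 it was 0.40. In the order of genes of the dog assembly UU_Cfam_GSD_1.0, IL23A lies next to STAT2, and its log2FC was -0.08.

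STAT3 and its feedback gene SOCS3 were abundant in all tumors. STAT3 lay at 583, 1162, 925, 707 and 880 normalized reads in the early and at 1216, 993, 766, 859 and 1011 in the late libraries. The log2FC of STAT3 was 0.21 with a 95% interval from -0.21 to 0.63, which corresponds to a fold of 0.865 to 1.54. SOCS3 lay at 954, 1515, 863, 368 and 1429 in the early and at 815, 767, 946, 699 and 1166 in the late libraries. Its log2FC was -0.09 (95% interval -0.80 to 0.62, a fold of 0.576 to 1.54). All 5 late values of SOCS3 lay within the range of the early ones, which spread over 4.12 times against 1.67 times in late CCH.

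STAT6 was the most even of the 8 genes across the 10 libraries. Its early values were 225, 253, 179, 174 and 235 normalized reads and its late values 268, 219, 217, 179 and 188. The log2FC was 0.01, and the 95% interval from -0.36 to 0.37 limits a stage difference to a fold of 0.781 to 1.30. STAT5A, a factor of IL-2 and GM-CSF signaling, lay at 75.2, 85.6, 52.5, 70.9 and 53.7 in the early and at 54.7, 61.8, 110, 94.1 and 45.1 in the late libraries, a log2FC of 0.06 (95% interval -0.54 to 0.66). STAT5A and STAT5B are close paralogs that lie next to each other. Per the study's methods, reads with several mapping places were divided evenly among these places. Whether reads were shared between STAT5A and STAT5B was not tested, since STAT5B was not analysed here. CISH had the lowest mean level of the 8 genes, with 25.7, 80.9, 35.3, 37.8 and 38.6 normalized reads in the early and 69.6, 29.5, 30.0, 45.0 and 54.6 in the late libraries. Its log2FC was 0.10 (95% interval -0.66 to 0.85, a fold of 0.634 to 1.80). For these 5 genes, limma gave unadjusted p-values between 0.30 and 0.964, and intervals that allow a modest difference in either direction.

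**Figure D2:**
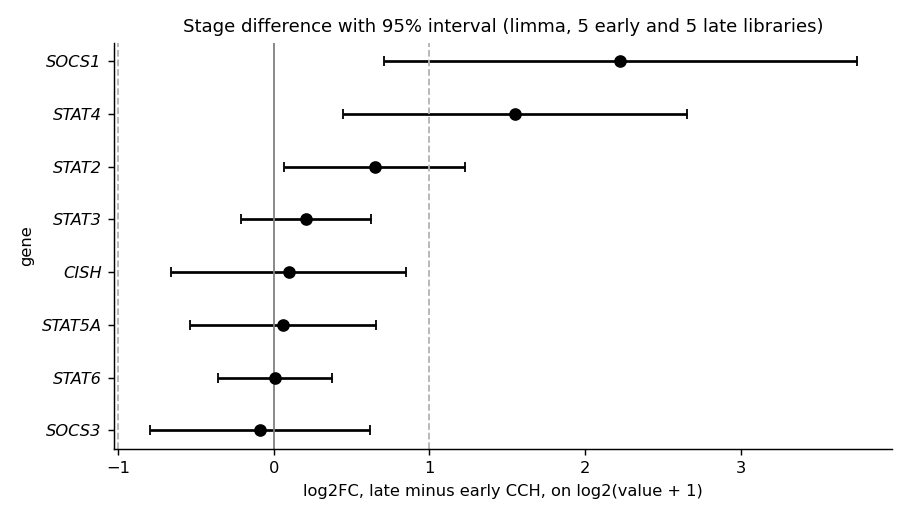
The log2FC (late minus early CCH, on log2(value + 1)) of the 8 genes with its 95% interval from limma, 5 libraries per stage; the solid line marks 0 and dashed lines mark -1 and 1. The intervals of SOCS1, STAT4 and STAT2 lie above 0, from 0.71, 0.45 and 0.07 upward, and those of the other 5 genes include 0.

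Over the family, limma called 0 of 8 genes with the BY adjustment, where it called 2.17% of all 12397 genes tested (131 higher and 138 lower in late CCH; with column totals as scaling, 64.0% of the calls were higher in place of 48.7%). The edgeR quasi-likelihood test and the DESeq2 Wald test on recovered reads also called 0 of 8, against 1.43% and 6.53% of all genes. With Benjamini-Hochberg (BH) adjustment limma called 1 gene, SOCS1 (adjusted p = 0.0492), against 9.04% of all genes. When a single library was left out as well, SOCS1 passed the BH adjustment (limma) without early library 1, 2 or 3 and lost the call without any of the other 7 libraries, with adjusted p-values up to 0.0953. STAT4 gained a BH call (limma) without early library 3 (adjusted p = 0.0211) or early library 4 (adjusted p = 0.0334). At an unadjusted p of at most 0.05, 3 of 8 genes were higher in late CCH with limma, among all genes 15.6%. The edgeR test gave 3 such genes and DESeq2 gave 2. The share of all genes at this unadjusted p was computed for the main limma fit only. With limma it was 2 genes without early library 1 or 5 or late library 1, 3 or 4, where the unadjusted p of STAT2 lay between 0.0548 and 0.0761. Early and late values overlapped in each of the 8 genes, while 12% of all genes tested had stages that did not overlap. The median log2FC was 0.15 over the 8 genes and -0.004 over all genes tested, and 7 of the 8 values were above 0, although the intervals of STAT3, STAT5A, STAT6 and CISH included 0. STAT6 turned to -0.0048 with TMM scaling and to -0.013 with array weights, and SOCS3 turned to 0.0012 with column totals.

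The spread between tumors was compared between the stages without a test. On the log2 scale, the SD was larger in early than in late CCH for 7 of 8 genes, against 51.5% of all genes tested, with STAT5A as the exception. For STAT6 and CISH the SD was only slightly larger in early CCH (0.24 against 0.23 and 0.60 against 0.53). It was 1.85 in early against 0.38 in late CCH for SOCS1, 1.21 against 0.57 for STAT4, 0.67 against 0.14 for STAT2 and 0.82 against 0.29 for SOCS3. The early SD of SOCS1 was 0.92 without early library 1, which held 2 reads of this gene, and that of STAT2 was 0.44 without the same library. The early SD of SOCS3 was 0.41 without early library 4. In late CCH the SD of SOCS1 was 0.23 without library 4, that of STAT2 was 0.092 without library 2 and that of SOCS3 was 0.18 without library 5. Early remained the wider stage for these 4 genes in each case, and over the 8 genes it was wider in 5 to 7 when each library was left out in turn, with the lowest number without early library 2.

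Single tumors were high or low in several members at once. Early library 2 had the highest early value of 5 of the 8 genes, STAT3, STAT5A, STAT6, SOCS3 and CISH. It also had the highest early mean of the macrophage markers (9.59, the other early libraries 7.03 to 8.23). The same held for the 2 neutrophil markers past the filter (8.93), fibroblasts (11.4), B cells (4.86) and endothelium (6.41). The neutrophil genes CXCR2, MPO and ELANE did not pass the filter, and MPO and ELANE had at most 3 reads per library on average. Langerhans and dendritic cell markers were lowest in this early library (7.04, the others 7.12 to 7.77). Its means were neither highest nor lowest for T cells (5.27), cytotoxic lymphocytes (6.42) and keratinocytes (8.12). The part of these cells in the result was not tested. Early library 1 had the lowest early value of STAT2, STAT3, SOCS1 and CISH. Late library 1 had the highest late value of STAT3, STAT6, SOCS1 and CISH.

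Members were compared pairwise by their deviations from the mean of the stage over the 10 libraries, which gave 28 pairs with Pearson's r from -0.69 to 0.81. None of the 28 pairs passed BH adjustment in an exact permutation test within stages (2 had an unadjusted p of at most 0.05 by Pearson's r). The highest value was that of STAT3 and CISH (r = 0.81, exact permutation p = 0.00986, BH-adjusted p = 0.275; Spearman's rho = 0.73, p = 0.025, adjusted p = 0.47). It was r = 0.59 without early libraries 1 and 2, the farthest from the median. STAT3 and SOCS1 followed with r = 0.78 (exact permutation p = 0.0197, adjusted p = 0.275; rho = 0.76, p = 0.0345, adjusted p = 0.47) and r = 0.50 without the same libraries. STAT3 and its feedback gene SOCS3 had r = 0.42 (exact permutation p = 0.368, adjusted p = 0.625; rho = 0.38, p = 0.338, adjusted p = 0.615; r = 0.38 without early libraries 1 and 2). STAT5A and CISH had r = -0.17 (exact permutation p = 0.646, adjusted p = 0.809; rho = -0.25, p = 0.502, adjusted p = 0.642; r = 0.17 without late libraries 3 and 5).

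Among all genes tested, those with deviations most like the 2 members of largest log2FC were listed as a description, over 10 libraries and 12396 genes compared. For STAT4 these were ACOT7 with r = 0.97, TRADD with r = 0.94 and TESC with r = 0.94, and 16 genes reached 0.9. For SOCS1 they were IFGGB2, IFGGB1 and ZNRF1, each with r = 0.96, and 32 genes reached 0.9. The SOCS1 value of early library 1 rested on 2 reads, with a log2(value + 1) of 1.54 against 4.35 to 6.21 in the other early libraries. The correlations with all genes were not computed without this library.

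The late samples are labeled as lymphocyte enriched, and the question was how the members lay beside T cell transcripts. In bulk tissue, fewer or more cells of a type and a change of RNA per cell cannot be told apart. In the early libraries, ordered by T cell markers as 1, 5, 2, 4 and 3, STAT2 had normalized read counts of 117, 180, 274, 371 and 311. SOCS1 had 1.90, 19.3, 58.6, 23.6 and 73.3 in that order. STAT4 had 16.2, 12.9, 26.1, 67.7 and 90.5. Early libraries 1 and 5, lowest in T cell markers, also had the lowest early values of STAT2, STAT4 and SOCS1. The order did not hold throughout, since SOCS1 was lower in library 4 than in library 2. STAT3 and CISH were lowest in early library 1 as well, whereas STAT6 had 225, 235, 253, 174 and 179. The markers of B cells ranged from 2.24 to 4.86 in early and from 5.03 to 8.22 in late CCH, those of cytotoxic lymphocytes from 4.19 to 7.25 and from 7.02 to 8.82, and those of macrophages from 7.03 to 9.59 and from 8.68 to 9.60. Their part in the stage differences of STAT2, STAT4 and SOCS1 was not tested.

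**Figure D3:**
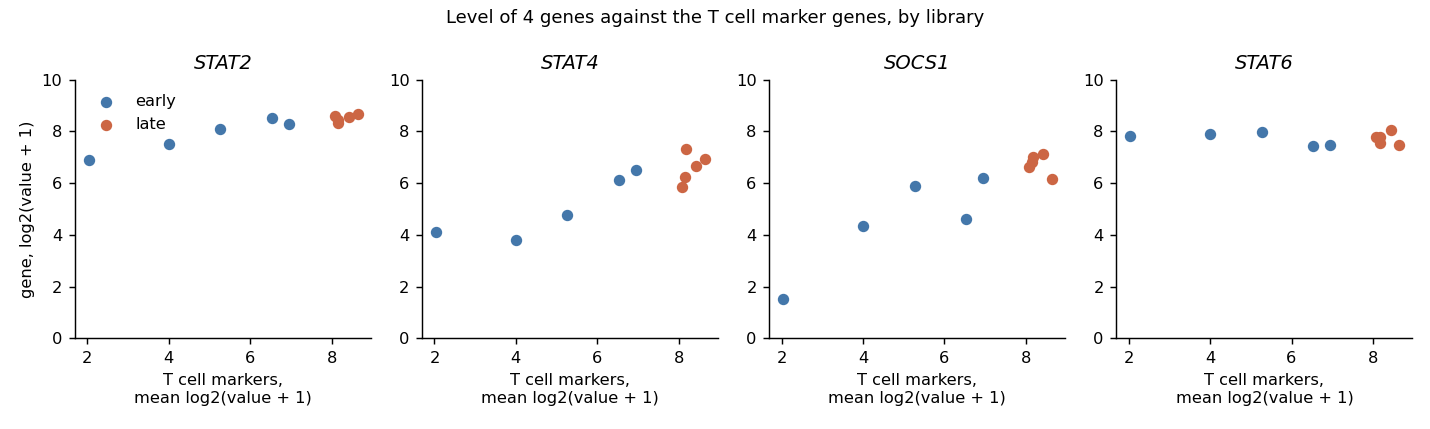
Level of STAT2, STAT4, SOCS1 and STAT6 (vertical, log2(value + 1)) against the mean level of 12 T cell marker genes (horizontal, the same scale) in 5 early and 5 late CCH libraries; each point is a library. The early libraries run from 2.03 to 6.94 on the horizontal axis and the late libraries lie between 8.07 and 8.64.

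Ratios within a library depend little on its scaling. Relative to the T cell markers, STAT4 was lower in late CCH. All 12 markers were higher in late CCH, with a log2FC from 2.85 to 4.00. With BY adjustment limma called 1 of these 12 markers, against 2.17% of all genes tested. With BH adjustment it called all 12, against 9.04% of all genes. A gene that rose by less than the markers has a lower ratio in late CCH, so the test below says little about STAT4 in particular. The log2 ratio was 0.10 ± 1.11 in early and -1.69 ± 0.51 in late CCH (SD, n = 5 each), a difference of -1.79, and all 5 late libraries lay below every early library. The exact two-sided permutation test gave p = 0.00794, the smallest it can give, and a BH-adjusted p of 0.0317 over the 4 ratios tested. Early library 1 was at 2.07 and the other early libraries between -0.51 and -0.20. Without early library 1 the difference was -1.30, and without it or without early library 5 the adjusted p of the exact test was 0.0635. Early library 1 had the lowest level of T cell markers, and its STAT4 value rested on 17 reads. Its mean marker level of 2.03 on log2(value + 1) lay near the limit that a count of 0 allows. That limit is a normalized read count of 2.86 in this library. The same differences, taken for SOCS1 and STAT2 after their values had been seen and without a test, ranged from -1.92 to 0.63 in early and from -2.48 to -1.14 in late CCH for SOCS1. For STAT2 they ranged from 1.34 to 4.85 in early and from 0.03 to 0.51 in late CCH.

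The other ratios did not pass the test. STAT4 to STAT6, the factors of IL-12 and IL-4 signaling, had a log2 ratio of -2.67 ± 1.42 in early and -1.13 ± 0.70 in late CCH (SD, n = 5 each), a difference of 1.54 (exact permutation p = 0.0873, BH-adjusted p = 0.175). In early CCH, libraries 3 and 4 were at -0.98 and -1.35, and libraries 1, 2 and 5 lay between -4.09 and -3.23. SOCS3 to STAT3 was 0.15 ± 0.69 in early and -0.15 ± 0.38 in late CCH (difference -0.30, exact permutation p = 0.405, adjusted p = 0.54, n = 5 each). CISH to STAT5A was -0.70 ± 0.54 and -0.66 ± 0.94 (difference 0.04, exact permutation p = 0.984, adjusted p = 0.984, n = 5 each). STAT5A alone stood for the STAT5 pair in this ratio.

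**Figure D4:**
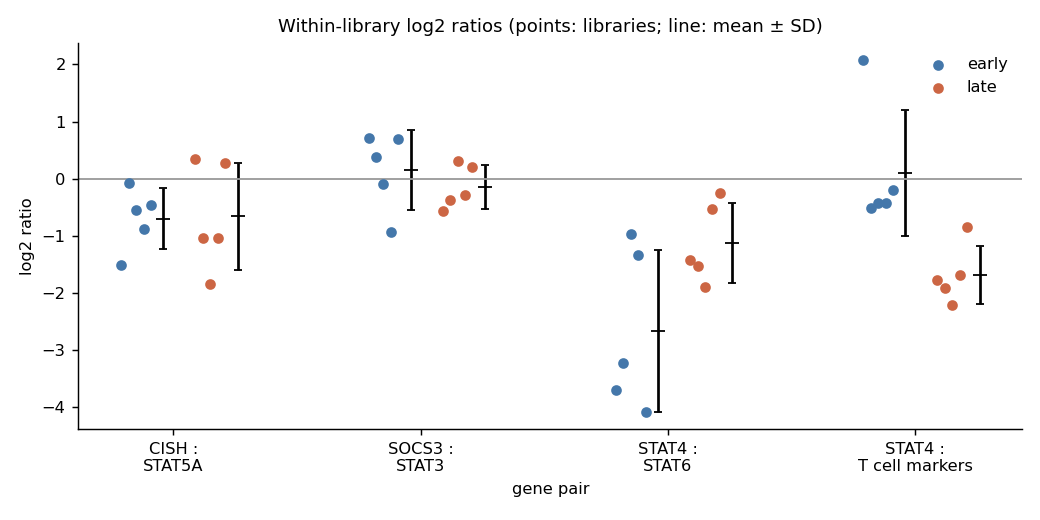
Log2 ratio of 4 gene pairs in each library of early and late CCH; points are libraries and lines are the mean ± SD of a stage, 5 libraries each. The late libraries lie below all early libraries only for STAT4 to T cell markers, where the means are 0.10 and -1.69.

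The rest of the pathway was examined through 5 lists of cytokines, receptor chains, kinases, negative regulators and STAT target genes, of which 78 genes passed the filter. Of these, 4 rose and 2 fell in late CCH at the threshold with BY adjustment (limma), that is 7.69% of the 78 against 2.17% of all genes tested, and the median log2FC of the 78 was 0.34. The lists were chosen with earlier results of these data known, so these shares are a description and no test of the pathway. Of the 20 listed cytokines with values, 8 passed the filter, and of these only IL21 was called. This cytokine of follicular helper T cells, which signals through STAT3, had 5.27 ± 4.49 normalized reads in early CCH and rose to 103 ± 74.4 in late CCH (SD, n = 5 each; log2FC 4.13, limma, adjusted p = 0.0426). IL21 had 29 reads in all early libraries together and passed the filter through its late values, the lowest of which was 25.9. LIF, a ligand of IL-6 type receptors, had the lowest log2FC of the cytokines with -1.15 and was not called (limma, adjusted p = 1). The median log2FC of the 8 cytokines was 0.58.

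Among the 23 receptor chains tested, 1 rose and 1 fell, with a list median of 0.49. IFNAR2, a chain of the type I interferon receptor that signals through STAT2, rose from 30.0 ± 10.2 to 105 ± 14.4 (log2FC 1.83, limma, adjusted p = 0.0194). IL13RA1, the chain that pairs with IL4R to activate STAT6, fell from 1169 ± 159 to 337 ± 62.1 (log2FC -1.80, limma, adjusted p = 0.00201), while STAT6 itself had the log2FC of 0.01 given above. IL21R had the highest log2FC of the list with 2.80 and was not called (limma, adjusted p = 0.117). Of the 4 Janus kinases, JAK3, the kinase of the gamma-chain receptors, rose from 87.4 ± 21.0 to 224 ± 46.4 (SD, n = 5 each, log2FC 1.36, limma, adjusted p = 0.0251). JAK2 had the lowest value of this list with -0.10, and the list median was 0.12.

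Of the 17 further negative regulators, 0 rose and 1 fell. SH2B3, an adaptor that restrains JAK2, fell from 327 ± 51.5 to 127 ± 43.1 (log2FC -1.40, limma, adjusted p = 0.0288). SOCS2, a feedback gene of growth hormone and STAT5 signaling, had the lowest log2FC with -1.68, but was not called (limma, adjusted p = 0.133). It held 54.2 ± 29.6 normalized reads in early and 14.3 ± 2.12 in late CCH (SD, n = 5 each), and its stages did not overlap. DUSP2, a phosphatase of activated lymphocytes, had the highest log2FC with 2.96 and was not called (limma, adjusted p = 0.0835). The list median was 0.15.

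Of the 26 STAT target genes tested, 1 rose and 0 fell, with a list median of 0.48. PIM2, a survival kinase, rose from 61.8 ± 23.2 to 209 ± 63.6 (SD, n = 5 each, log2FC 1.78, limma, adjusted p = 0.0492). FOXP3, the factor of regulatory T cells, had the highest log2FC with 2.94 on 16 reads in all early libraries together, and was not called (limma, adjusted p = 0.182). MYC had the lowest value with -1.12 (limma, adjusted p = 0.913). When each library was left out in turn, IL13RA1 was called in 10 of 10 fits, IFNAR2 in 6, JAK3 in 4, IL21 and SH2B3 in 2 and PIM2 in 1. The number of these genes called higher fell from 4 to 0 without early library 5 or late library 1, 2 or 4. It fell to 1 without early library 1 or late library 5, and to 2 without early library 4 or late library 3. Without early library 3 it was 6. Calls among all genes tested fell as well. Those called higher went from 131 to 20 without early library 5, and to 29, 18 and 19 without late library 1, 2 and 4. The number of pathway genes called lower was 1 without early library 1, 3 or 5 or late library 1, 2, 4 or 5.

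**Figure D5:**
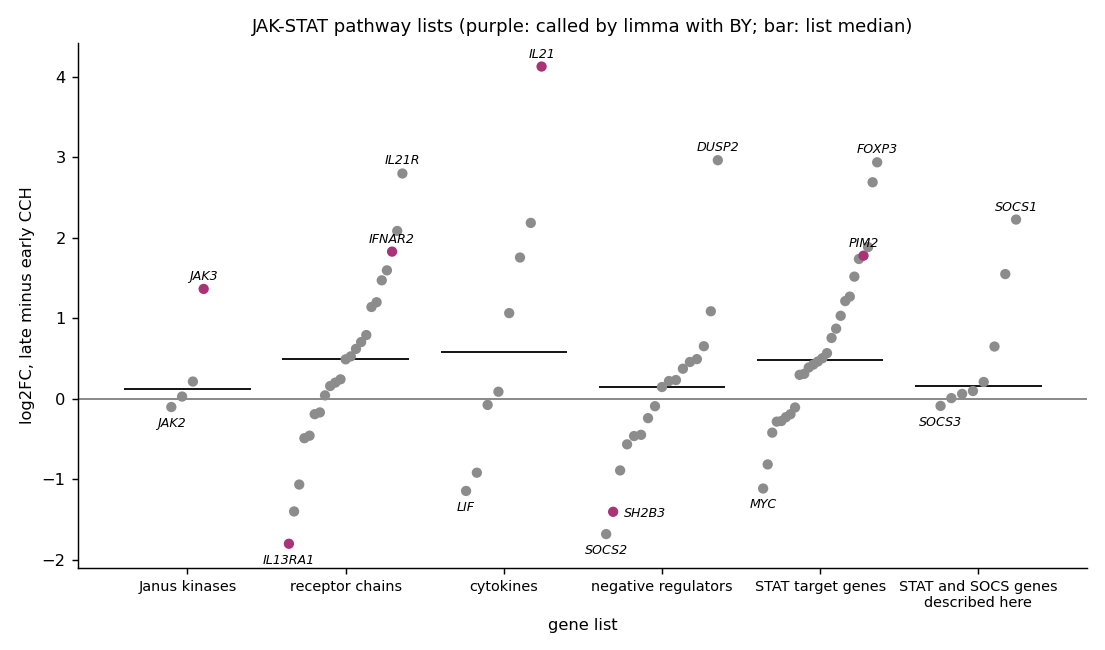
The log2FC (late minus early CCH, limma) of each gene tested in 5 pathway lists and of the 8 STAT and SOCS genes; purple points were called with BY adjustment, bars are list medians, and called genes and the highest and lowest of each list are named. JAK3, IFNAR2, IL21 and PIM2 are called higher and IL13RA1 and SH2B3 lower, while no STAT or SOCS gene described here is called.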

How the data were processed

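Total RNA of 10 CCH samples was sequenced with QuantSeq 3′. Per the study's methods and the labels, the authors trimmed reads with Cutadapt, aligned them with STAR to CanFam3.1, counted them per gene with featureCounts in 2 rounds and shared multi-mapped reads evenly; tool versions are not given in the sources used here. The deposited signal is the read count of a gene divided by a size factor of its library. All 166096 values above 0 (100%) were whole multiples of the value of 1 read (tolerance 0.01), which gave recovered reads. In late library 1 a read is worth 0.994, so close to 1 that the whole multiples are harder to tell from rounded values there, and this library entered the count tests. Evenly shared reads would give fractions of a read, and how they became whole is not given in the sources used here. The other 11 columns of the table were not used.

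The test covered the 12397 genes that reached a value of 10 in 5 or more libraries. It used limma 3.58.1 (mean-variance trend, R 4.3.3) on log2(value + 1), without covariates, with BY adjustment over all of them; all 8 members present passed this filter. Fold changes are on this scale, where the pseudocount draws low values together; those of SOCS1 and STAT4 were nevertheless larger than in the count models (2.23 against 1.64 and 1.63, and 1.55 against 1.27 and 1.26, with edgeR and DESeq2). Recovered reads were tested with edgeR 4.0.16 and DESeq2 1.42.0. Ratios were compared with an exact permutation test over 252 assignments. The fits were tested on simulated counts, with the same added variation between libraries for every gene. That setting does not cover the differing spreads of the genes described here. A planned ratio of STAT5A to STAT5B was not run, and CISH was set against STAT5A alone. Marker scores are means of log2(value + 1) over the genes past the filter. Of the pathway lists, every gene called and the highest and lowest log2FC were named. The members and lists were chosen with earlier results of these data known. The p-values of the stage comparisons set a difference against the spread between these tumors. They do not separate stage from RNA quality or extraction batch. Reads carry no molecular identifiers, so counting limits cover counting error only. RefSeq names of UU_Cfam_GSD_1.0 matched 85.0% of the symbols and were used for neighboring genes only.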

Additional observations from a re-analysis of the deposited data

Results flagged for a closer look

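The 5 libraries of a stage were searched for a value far from the rest, for each of the 8 genes and 4 ratios, which made 24 sets of values. For the extreme value of a set, its distance to the next value was set against the span from lowest to highest, with 0.71 as the limit for 5 values. The limit was passed in 1 set, where chance alone gives about 1.2. It was the log2 ratio of STAT4 to T cell markers in early library 1, the highest early value at 2.07, with the next at -0.20 and a relative distance of 0.879. The STAT4 value of this library rested on 17 reads and its mean T cell marker level was 2.03, near the limit that a count of 0 allows. The part of counting error in the distance was not tested.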

How the results depend on the processing

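No paired analysis was possible because no replicate number is given with the values and the stages come from different dogs. The BH adjustment called SOCS1 (log2FC 2.23), which raised the number of members called from 0 to 1, and with a library left out as well it lay between 0 and 2; that combination was added after the data had been seen. No other alternative run called a member. The log2FC of STAT6 turned to -0.0048 with TMM scaling and -0.013 with array weights, and that of SOCS3 to 0.0012 with column totals, all within their error. Without a single library, it ranged from -0.11 to 0.21 for STAT5A, -0.077 to 0.073 for STAT6, -0.42 to 0.091 for SOCS3, -0.072 to 0.34 for CISH, 1.48 to 2.65 for SOCS1, 1.23 to 1.91 for STAT4 and 0.40 to 0.82 for STAT2. Column totals moved the median of all genes to 0.085. Over all alternatives, the BY-adjusted p of SOCS1 was at least 0.267 (limma). The 4 pathway genes called higher became 2 with a pseudocount of 0.5, 15 with BH adjustment and 9 with DESeq2, and lay between 0 and 6 without a library, those called lower between 1 and 2. Among all genes tested, 131 were called higher in the main fit. This number was 100 with a pseudocount of 0.5, 685 with BH adjustment and 480 with DESeq2. BH is less strict by construction; for the other changes the cause was not tested. The difference of the log2 ratio ranged without a library from -0.22 to 0.33 for CISH to STAT5A, from -0.57 to -0.16 for SOCS3 to STAT3, from 1.19 to 1.97 for STAT4 to STAT6 (exact permutation, lowest BH-adjusted p = 0.0794) and from -2.0 to -1.30 for STAT4 to T cell markers. CISH did not pass a filter on a mean of at least 50. The spread of each gene between tumors was also computed without each library, which was added after the data had been seen.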
